A study of Mus musculus with 12 samples.

Results

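Catalase, the superoxide dismutases and the glutathione peroxidases are the enzymes that take superoxide to hydrogen peroxide and hydrogen peroxide to water. Their members here were picked by gene name in the 2 deposited tables: Cat, Sod1, Sod2, Sod3, Gpx1, Gpx3, Gpx4, Gpx7 and Gpx8. These are 9 of the 23186 genes listed in either table, and all 9 were listed in both and passed the filter on low counts in every comparison. Of the other mammalian glutathione peroxidase genes looked up, Gpx2 and Gpx5 were listed in neither table, and Gpx6 was listed in the Keap1 table with 1 read, so these 3 were not tested.

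RNA was sequenced from primary mouse embryonic fibroblasts taken at embryonic day 13.5 to 14.5 and grown in pyruvate-free medium with 10% serum. The 12 libraries fell into 4 groups of 3, from cultures homozygous for 1 of 2 inducible alleles. Nrf2 (gene symbol Nfe2l2) encodes the transcription factor that switches on many antioxidant genes, and Keap1 encodes the adaptor that targets it for degradation. Adenovirus with Cre recombinase, or empty adenovirus, was added at a multiplicity of infection of 500, and RNA was collected 4 days later. The Nrf2 D29H group had the genotype LSL-Nrf2D29H and Cre virus, which left the cells homozygous for the missense change D29H in Nrf2. The labelled Nrf2 knockout group had the same genotype and empty virus, under which the study describes Nrf2 as functionally absent. The Keap1 R554Q group had the genotype CA-Keap1R554Q and Cre virus, which left Keap1 homozygous for the missense change R554Q. The Keap1 wild-type group had the same genotype and empty virus, under which Keap1 is described as working normally. All 4 groups carried an engineered allele and received adenovirus, and no group without the alleles received Cre, so Cre and the induced allele cannot be told apart. The labels do not say whether libraries of a group came from separate embryos or cultures, so a p-value measures only the spread between these libraries, which may be technical.

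Hydrogen peroxide and superoxide are by-products of respiration and of oxidase enzymes. SOD1 works in the cytosol, SOD2 in the mitochondrial matrix and SOD3 outside the cell, and each turns superoxide into hydrogen peroxide. Catalase, held mainly in peroxisomes, splits hydrogen peroxide directly, while the glutathione peroxidases use glutathione or other thiols to reduce hydrogen peroxide or lipid peroxides. NRF2 is best known for activating genes that supply glutathione and thioredoxin.

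The glutathione peroxidases fall into selenium enzymes, which carry selenocysteine in the active site, and enzymes with cysteine there. Selenocysteine is written by a TGA codon that would otherwise end translation, so the mRNA depends on a dedicated decoding machinery. The stretches around that codon are shown because they separate the members Gpx1, Gpx3 and Gpx4 from Gpx7 and Gpx8. They are read from the GENCODE M21 annotation of GRCm38 and run 5′ to 3′ on the coding strand, with the selenocysteine codon in capitals.
Gpx1, codon at chr9:108339451-108339453: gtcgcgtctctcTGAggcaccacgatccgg
Gpx3, codon at chr11:54907256-54907258: gtagccagctacTGAggtctgacagaccaa
Gpx4, codon at chr10:80054737-80054739: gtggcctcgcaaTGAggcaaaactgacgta
The annotation marks such a codon in 1 of 4 transcripts of Gpx1, in 3 of 3 of Gpx3 and in 3 of 7 of Gpx4. It marks 0 of 2 transcripts of Gpx7 and 0 of 2 of Gpx8, and 0 for Cat and the superoxide dismutases. The other transcripts of Gpx1 and Gpx4 carry no such mark in this annotation.

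The promoter of Cat is shown because Cat was the member whose level moved with both alleles. The 250 bases before the start of Cat lie at chr2:103485154-103485403 on the minus strand of GRCm38.p6 in RefSeq. Capitals mark CCAAT or its reverse ATTGG, the letters of the CCAAT box.
Cat: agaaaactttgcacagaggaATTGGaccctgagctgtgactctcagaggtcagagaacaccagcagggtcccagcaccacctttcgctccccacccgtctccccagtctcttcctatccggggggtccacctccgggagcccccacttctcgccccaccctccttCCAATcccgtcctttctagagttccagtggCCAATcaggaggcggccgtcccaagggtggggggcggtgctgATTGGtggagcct
The letters occur 4 times, at 230 to 226, 85 to 81, 55 to 51 and 13 to 9 bases before the start. CCAAT on either strand was present in 33.8% of all windows of 250 bases before a start in the table, and in 5 of the 8 members that have a window. The core of the antioxidant response element to which NRF2 binds was searched as TGACNNNGC, and as GCNNNGTCA for the opposite strand, in 300 bases from 250 before to 50 after each start. It occurred in 4071 of 32851 windows (12.4%) and in 1 of 11 windows of the members, that of Sod1. The windows of Cat and of the NRF2 target Nqo1 held no match, which says only that these letters are not in those windows. The Sod1 match is in the reverse direction, 56 to 48 bases before the start, with its letters in capitals.
Sod1, chr16:90220696-90220724, plus strand: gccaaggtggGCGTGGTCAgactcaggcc
Sod3 had no window in the table.

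The counted reads per library numbered 14963004 to 23818477, and both extremes were in the labelled knockout group (replicates 3 and 2). All 7 fibroblast markers had reads in each group, and the lists for other cell types were low against them. Summed macrophage markers reached 142 to 157 CPM in D29H and 114 to 153 in labelled knockout. They reached 63.5 to 76.5 CPM in R554Q and 89.6 to 101 in wild type, against 14124 to 19586 CPM for the fibroblast markers. Of the 7 macrophage markers 6 were listed. Adgre1 was not listed under that name, so no level is given for it. CPM are read counts scaled to library size with TMM factors over all 12 libraries. Nfe2l2 had 49.6, 56.6 and 52.2 CPM in the D29H libraries and 46.4, 40.7 and 41.0 in those labelled knockout, so its reads were present in both. Reads from a silent and from an expressed allele cannot be told apart in these counts, and the group is called labelled knockout throughout. Nqo1, a quinone reductase and standard NRF2 target, averaged 119 ± 13.6 CPM with D29H against 8.84 ± 1.71 with the labelled knockout, and 351 ± 40.6 CPM with R554Q against 33.2 ± 0.299 with wild-type Keap1 (SD, n = 3 each). In bulk RNA, fewer cells of a type and less RNA per cell cannot be told apart.

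Gpx1 and Gpx4 made up most of the RNA of the family. Levels of different genes are compared in FPKM, the deposited read level relative to the listed gene length and the library total. Gpx1, the main peroxidase of the cytosol, had a mean level of 673 FPKM over the 12 libraries, ranging from 542 to 789. Gpx4, which reduces peroxides within membrane lipids, had 586 FPKM (386 to 718). Sod1 followed with 299 FPKM (246 to 368), and Gpx8, a membrane protein of the endoplasmic reticulum, with 166 FPKM (134 to 187). The remaining 5 genes had far lower levels. Gpx7, a peroxidase of the endoplasmic reticulum that takes part in oxidative folding, had 28.8 FPKM (22.4 to 36.8), and Cat had 22.2 FPKM (13.1 to 44.6). Sod2 had 10.1 FPKM (8.51 to 12.1), Gpx3, a secreted peroxidase, had 8.50 FPKM (6.71 to 9.44), and Sod3 had 7.42 FPKM (4.80 to 10.4). In this order the ranges of Gpx1 and Gpx4 overlapped, as did those of Gpx7 and Cat, of Sod2 and Gpx3, and of Gpx3 and Sod3. The other neighbours were separated in their ranges over the 12 libraries.

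**Figure D1:**
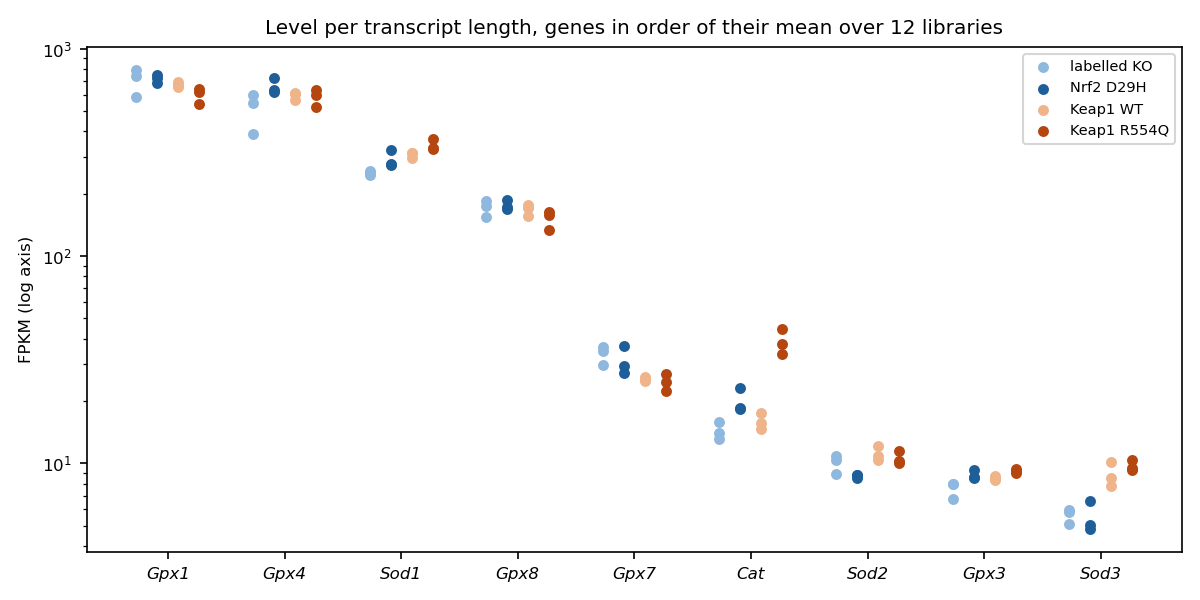
Level of each gene in FPKM on a log axis, with 1 point per library and colours for the 4 groups, genes ordered by their mean over the 12 libraries. Gpx1, Gpx4, Sod1 and Gpx8 have at least 134 FPKM in every library, and Cat in the 3 Keap1 R554Q libraries stands apart from its other 9 libraries.

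Gpx1 and Gpx4 together took 64.3% to 73.1% of the summed FPKM of the 9 genes, depending on the library. The summed level was 1773 ± 120 FPKM in R554Q, 1809 ± 27.2 in wild type, 1919 ± 43.1 in D29H and 1708 ± 240 in labelled knockout (SD, n = 3 each). Cat took 2.19 ± 0.435% of that sum in R554Q against 0.882 ± 0.091% in wild type, and 1.04 ± 0.12% in D29H against 0.859 ± 0.219% in labelled knockout. In the R554Q libraries Cat (33.5 to 44.6 FPKM) lay above Gpx7 (22.4 to 27.0 FPKM), whereas in the other 3 groups it lay below.

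In the Keap1 comparison, which asks what R554Q changes in cells that start with working Keap1, Cat rose and no other member passed the test. Cat (ENSMUSG00000027187; GRCm38 chr2:103453849-103485160, minus strand, listed length 2613 bases) had 99.4, 87.2 and 118 CPM in the R554Q libraries. It had 42.5, 47.4 and 40.3 CPM in the wild-type libraries. The lowest R554Q library was well above the highest wild-type library, and replicate 3 was the highest of the group. The fold change was 2.36 (95% interval 2.03 to 2.74), a log2 value of 1.24 (SE 0.10). The quasi-likelihood test of edgeR, with Benjamini-Hochberg adjustment over 14128 genes, gave an adjusted p of 3.7e-07. By p-value Cat ranked 25 among these genes. Of all genes tested 6.17% were called, 3.77% as higher and 2.4% as lower, and 1 of the 9 members was called. The median log2 fold change of the members was -0.06, against -0.000989 over all genes tested. The summed macrophage markers given above were lower in all R554Q libraries than in all wild-type libraries, and their part in the result was not tested. The call held in each of 17 other settings, with log2 values from 1.12 to 1.33 and adjusted p up to 8.6e-05. In the authors' deposited table Cat had an adjusted p of 4e-25, and the lowest among the other 8 members was 0.0868.

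In the Nrf2 comparison, which asks what D29H changes in cells described as lacking functional NRF2, Cat also rose, by less. The D29H libraries had 59.5, 45.7 and 46.2 CPM of Cat. The libraries labelled knockout had 33.7, 36.9 and 40.5 CPM. The groups did not overlap, and D29H replicate 1 stood above the other D29H libraries. The fold change was 1.37 (95% interval 1.17 to 1.61), a log2 value of 0.46 (SE 0.11), with an adjusted p of 0.0215 in edgeR over 14370 genes. Here 4.75% of all genes were called, 3.47% as higher and 1.28% as lower, and again 1 of the 9 members was. The median of the members was 0.01, against 0.000414 over all genes tested. Summed fibroblast markers had 15908 to 16690 CPM in D29H and 18164 to 19586 in labelled knockout. Mitochondrial genes took 0.9819% to 1.772% of the reads in D29H, most in replicate 2, and 0.7254% to 0.9045% in labelled knockout. The part of both in the result was not tested. The call was lost without D29H replicate 3 (0.52, adjusted p 0.0731), without labelled-knockout replicate 1 (0.39, adjusted p 0.0557) and without labelled-knockout replicate 2 (0.44, adjusted p 0.0786), with values near that of the full set. All 18 other settings gave a positive value, from 0.32 (without D29H replicate 1) to 0.53. In the authors' deposited table Cat had an adjusted p of 0.0202, and the lowest among the other 8 members was 0.122.

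**Figure D2:**
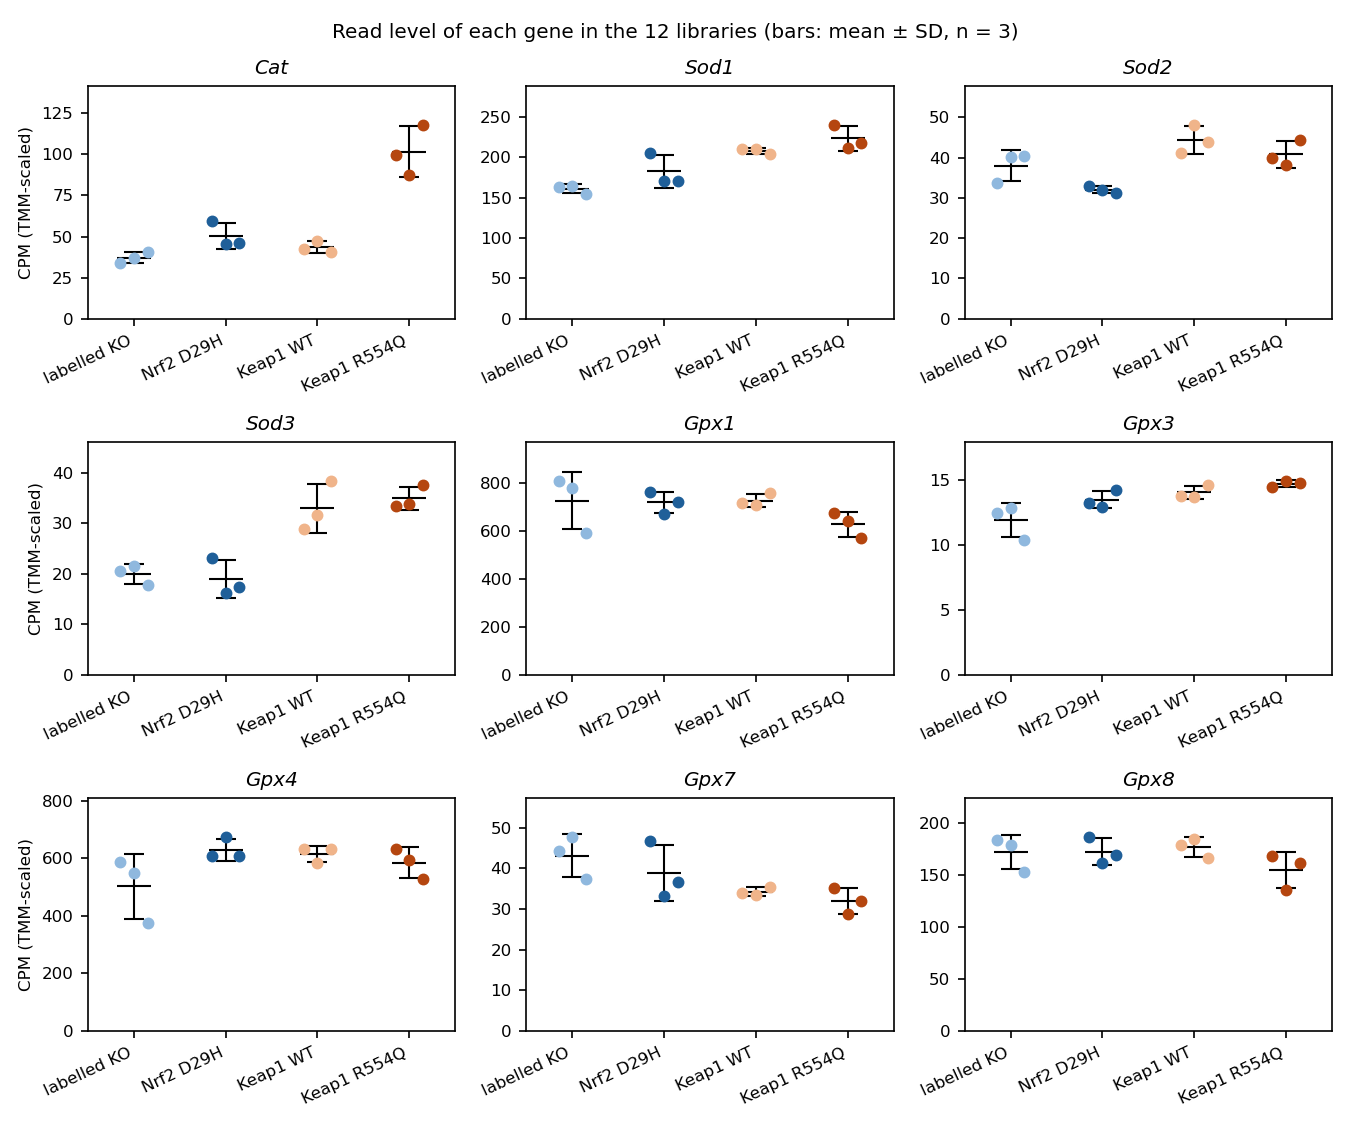
CPM of each gene by group, with 1 point per library and bars for the mean ± SD of 3 libraries, each axis starting at 0. Cat in Keap1 R554Q (87.2 to 118 CPM) lies above all other libraries, while Sod3 splits by culture, with 16.2 to 23.2 CPM in the Nrf2 groups and 28.8 to 38.4 CPM in the Keap1 groups.

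The mean level of Cat was 37.0 ± 3.38 CPM in labelled knockout, 43.4 ± 3.63 in wild type, 50.5 ± 7.81 in D29H and 102 ± 15.5 in R554Q (SD, n = 3 each). In this order neighbouring groups overlapped in their ranges except for R554Q, which stood apart. The fold changes with D29H and with R554Q start from unlike baselines, labelled knockout and working Keap1, in different cultures. They were compared by subtracting the fold change with R554Q from that with D29H in 1 fit of all 12 libraries. That difference was -0.77 on the log2 scale (95% interval -1.11 to -0.43), with an unadjusted p of 0.0001 and an adjusted p of 0.0971 in edgeR over 14794 genes. Cat ranked 15 among these genes, of which 0.027% were called (0.00676% with the higher and 0.0203% with the lower value in the Nrf2 comparison). Of the 9 members 0 were called in edgeR and in limma and 1, Cat, in DESeq2 (adjusted p 0.0108), while 2, Cat and Gpx4, had an unadjusted p under 0.05. Without D29H replicate 1 the difference for Cat was -0.93 (adjusted p 0.0357), and without R554Q replicate 2 it was -0.87 (adjusted p 0.037). Over 22 settings its adjusted p ran from 0.0108 to 0.385, each time with a smaller value in the Nrf2 comparison.

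Among 10595 genes that averaged 100 counts or more, those whose log2 CPM followed Cat most closely over the 12 libraries were Abcc4 (r = 0.98), Alas1 (r = 0.97) and Prkar2b (r = 0.97). Abcc4 encodes an exporter of organic anions, Alas1 the first enzyme of heme synthesis, and Prkar2b a regulatory subunit of protein kinase A. The 12 points share their libraries and fall into 4 groups. With each group's mean removed r was 0.63, 0.78 and 0.69. Abcc4 had 24.6 ± 2.8 CPM with R554Q, 8.35 ± 1.04 with wild-type Keap1, 11.1 ± 0.805 with D29H and 7.62 ± 0.276 with the labelled knockout (SD, n = 3 each), which is the same order of groups as for Cat. These genes were chosen for their likeness, so their levels are a description.

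**Figure D3:**
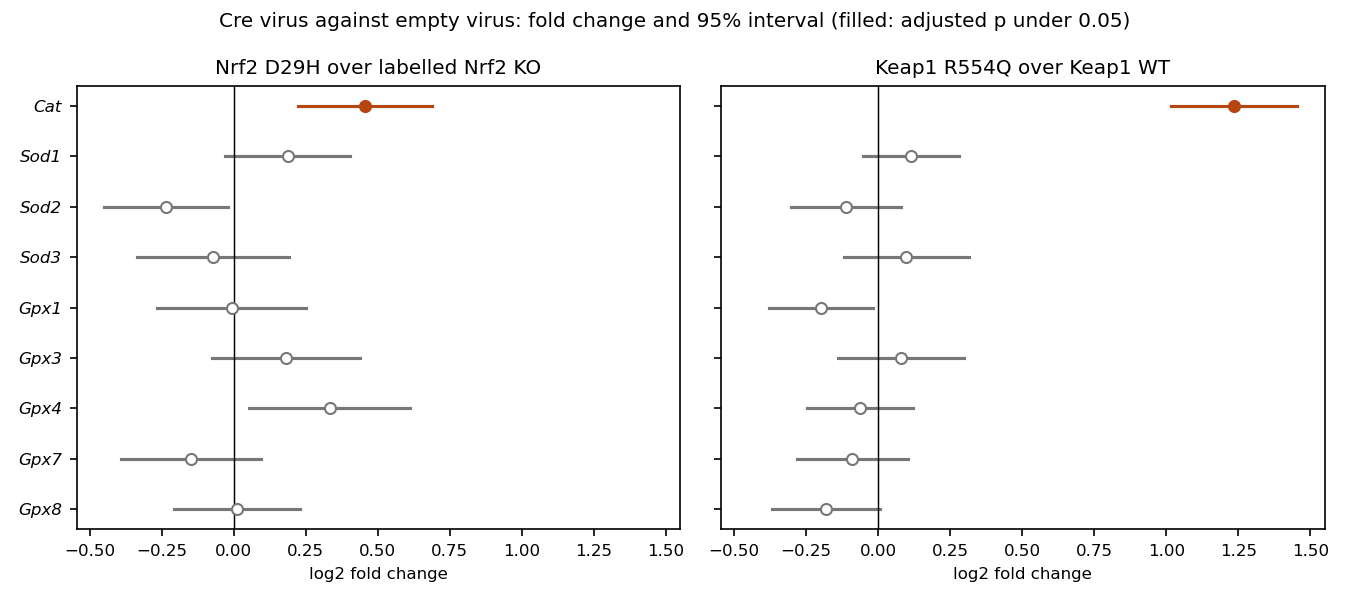
Log2 fold change with its 95% interval for each gene in the Nrf2 comparison (left) and the Keap1 comparison (right), filled where the adjusted p was under 0.05. Cat, at 0.46 and 1.24, is the filled gene in both panels, and the other 8 lie between -0.24 and 0.33.

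The superoxide dismutases did not pass the test in either comparison. Sod1 (ENSMUSG00000022982; chr16:90220742-90226322, plus strand) had 205, 170 and 171 CPM in D29H and 164, 164 and 155 in labelled knockout. The D29H libraries were all above the others, with replicate 1 the highest. The difference of 0.19 on the log2 scale (SE 0.11) had an adjusted p of 0.29, and was 0.09 (adjusted p 0.529) without D29H replicate 1. In the Keap1 culture Sod1 had 240, 211 and 218 CPM in R554Q and 210, 210 and 203 in wild type. The groups again did not overlap, but by a narrow margin, and the log2 fold change was 0.11 (SE 0.08, adjusted p 0.401). With GC and length offsets in the fit the values for Sod1 were 0.08 (adjusted p 0.607) in the Nrf2 comparison and 0.24 (adjusted p 0.0619) in the Keap1 comparison. Without the offsets, leaving out R554Q replicate 1 gave 0.06 (adjusted p 0.758) in the Keap1 comparison. Sod1 overlaps Scaf4 on the opposite strand, whose counts were 34.1% of those of Sod1 in the Nrf2 table and 24% in the Keap1 table. Use of strand in counting is not given in the sources used here, so reads of the overlap cannot be told apart.

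Sod2 (ENSMUSG00000006818; chr17:13007839-13018119, plus strand) had 33.0, 31.8 and 31.3 CPM in D29H and 33.6, 40.1 and 40.3 in labelled knockout. All D29H libraries lay below, replicate 1 of the labelled knockout only just above them. The log2 value of -0.24 (95% interval -0.45 to -0.02) had an adjusted p of 0.174 in edgeR. For the Keap1 comparison the value was -0.11 (SE 0.09, adjusted p 0.483), or -0.0087 with these offsets, and the groups overlapped. Sod2 is a classical target of NF-kB. Of 10 listed NF-kB targets 1 was called in each comparison, against 4.75% and 6.17% of all genes tested. Cxcl1, a chemokine, was higher at 0.45 (adjusted p 0.036) in the Nrf2 comparison. Icam1, an adhesion molecule, was higher at 0.54 (adjusted p 0.0376) in the Keap1 comparison. The values of Sod2 were negative in both. Sod3 (ENSMUSG00000072941; chr5:52363946-52371405, plus strand) had values of -0.07 (SE 0.13) and 0.10 (SE 0.10), with overlapping groups in both. Leaving out 1 library gave -0.24 to 0.03 and 0.01 to 0.22, with adjusted p of 0.168 or higher.

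None of the 3 selenium peroxidases passed the test. Gpx4 (ENSMUSG00000075706; chr10:80047166-80056439, plus strand) had 608, 675 and 607 CPM in D29H and 587, 549 and 374 in labelled knockout. The groups did not overlap, and labelled-knockout replicate 3, the shallowest library, was far below the rest. The log2 value of 0.33 (95% interval 0.05 to 0.61) had an adjusted p of 0.143 in edgeR. Without that library the value was 0.17 (SE 0.12, adjusted p 0.449), and without labelled-knockout replicate 1 it was 0.46 (adjusted p 0.0481). With GC and length offsets in the fit the value was 0.25 (SE 0.11, adjusted p 0.177). Gpx4 in the Keap1 comparison had a value of -0.06 (95% interval -0.25 to 0.12), or -0.17 (adjusted p 0.176) with the offsets. Without the offsets it was 0.01 (adjusted p 0.934) when R554Q replicate 3 was left out. It was -0.12 (adjusted p 0.519) when R554Q replicate 1 was left out. The difference between the comparisons was 0.40 (95% interval 0.04 to 0.77, adjusted p 0.402 in edgeR), and 0.23 (adjusted p 0.6) without labelled-knockout replicate 3.

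Gpx1 (ENSMUSG00000063856; chr9:108339080-108340338, plus strand) had 674, 641 and 571 CPM in R554Q and 717, 707 and 757 in wild type. All R554Q libraries were lower, most of all replicate 3. The log2 value of -0.20 (95% interval -0.38 to -0.02) had an adjusted p of 0.161 in edgeR, and 0.0391 with GC and length offsets in the fit (-0.25). Without R554Q replicate 3 the value was -0.13 (adjusted p 0.262). In the Nrf2 comparison its value was -0.01 (95% interval -0.27 to 0.25), with 763, 673 and 722 CPM against 810, 782 and 591. The library with 591 CPM was labelled-knockout replicate 3, the shallowest. Over 18 other settings the Gpx1 value ran from -0.17 to 0.08, with adjusted p of 0.122 or higher. Gpx3 (ENSMUSG00000018339; chr11:54902453-54910377, plus strand) had 13.3, 13 and 14.3 CPM in D29H and 12.5, 12.9 and 10.4 in labelled knockout, just short of overlapping. Its values were 0.18 (SE 0.12, adjusted p 0.387) and, in the Keap1 comparison, 0.08 (SE 0.10, adjusted p 0.682). The first was 0.11 (adjusted p 0.681) without labelled-knockout replicate 3, and the second was 0.04 (adjusted p 0.875) with the offsets.

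The 2 cysteine peroxidases of the endoplasmic reticulum were also not called. Gpx8 (ENSMUSG00000021760; chr13:113042763-113046388, minus strand) had 168, 135 and 162 CPM in R554Q and 179, 185 and 167 in wild type. The lowest was R554Q replicate 2, and the groups overlapped by a small margin. Its log2 value was -0.18 (95% interval -0.37 to 0.01, adjusted p 0.223 in edgeR), 0.01 (adjusted p 0.955) with GC and length offsets in the fit and -0.09 (adjusted p 0.594) without R554Q replicate 2. In the Nrf2 comparison it was 0.01 (95% interval -0.21 to 0.23). Gpx7 (ENSMUSG00000028597; chr4:108400390-108406961, minus strand) had values of -0.15 (SE 0.12, adjusted p 0.472) and -0.09 (SE 0.09, adjusted p 0.595), with overlapping groups. The first was -0.30 (adjusted p 0.0765) without D29H replicate 1 and -0.04 (adjusted p 0.91) without D29H replicate 2. The second was -0.16 (adjusted p 0.399) without R554Q replicate 1 and -0.02 (adjusted p 0.939) without R554Q replicate 2.

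Counting libraries rather than tests, the 3 D29H libraries lay above the 3 labelled knockout ones for 4 members (Cat, Sod1, Gpx3 and Gpx4) and below for 1 (Sod2). Over all genes tested the groups did not overlap for 25.4%, of which 11.9% were higher and 13.4% lower in D29H. The R554Q libraries lay above wild type for 2 members (Cat and Sod1) and below for 1 (Gpx1), against 27.4% of all genes, 12.9% higher and 14.5% lower. Whether 3 of 9 members in the Keap1 culture or 5 of 9 in the Nrf2 culture depart from that background was not tested. Of the 5, Cat alone passed the edgeR test. The gap was small for Gpx3 (lowest D29H library 12.99 CPM, highest labelled knockout 12.88). It was also small for Sod2 (highest D29H library 33.0 CPM, lowest labelled knockout 33.6).

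Levels also differed between the cultures. The contrasts that follow use the same libraries as those above, and culture, allele and deposited table go with the groups and cannot be told apart. Summed macrophage markers, and adipocyte markers (9.64 to 12.5 CPM against 6.88 to 8.05, with 3 of 4 listed), were higher in every Nrf2 library than in every Keap1 library. Epithelial markers were lower, at 2.05 to 4.38 CPM against 5.23 to 7.24. Fibroblast markers were higher in the Nrf2 group of each contrast, at 18164 to 19586 CPM against 14274 to 16621 with empty virus and at 15908 to 16690 against 14124 to 15419 with Cre virus. The part of these lists in the contrasts was not tested. Sod3 was lower in both Nrf2 groups: it had 20.5, 21.5 and 17.8 CPM in labelled knockout and 28.8, 31.5 and 38.4 in Keap1 wild type. The ranges were far apart, and the fold was 0.607, a log2 value of -0.72 (SE 0.13, adjusted p 0.000214 in edgeR). With Cre virus, Sod3 had 23.2, 16.2 and 17.3 CPM in D29H and 33.4, 33.8 and 37.5 in R554Q, a log2 value of -0.88 (SE 0.12, adjusted p 1.9e-05). Sod1 was also lower in the Nrf2 groups, at -0.37 (SE 0.09, adjusted p 0.00447) with empty virus and -0.29 (SE 0.09, adjusted p 0.0188) with Cre virus. The value with empty virus was -0.24 (adjusted p 0.0373) with GC and length offsets in the fit. The Cre contrast of Sod1 lost its call without D29H replicate 2 (adjusted p 0.0889), without D29H replicate 3 (0.1) and without R554Q replicate 1 (0.121).

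With empty virus Gpx7 was higher in labelled knockout, at 44.4, 47.8 and 37.3 CPM against 34.0, 33.4 and 35.4 in wild type. The groups did not overlap. Its log2 value was 0.33 (SE 0.11), with an adjusted p of 0.0409 by edgeR. Leaving out 1 library ended the call in 5 of 6 fits (adjusted p 0.0753 to 0.199), with values of 0.26 to 0.37, and it held without labelled-knockout replicate 3 (0.42, adjusted p 0.0129). In all 3 members (1 higher, 2 lower) were called with empty virus, where 19.7% of all genes were called (9.58% higher, 10.1% lower). With GC and length offsets in the fit 6 were called, with Sod2, Gpx3 and Gpx4 also lower, and the number of all genes called was 3529 of 14794 in place of 2911. Cat, at -0.23 (95% interval -0.48 to 0.01, adjusted p 0.18), was not called in either setting. Without the offsets Gpx4 had a value of -0.29 (adjusted p 0.104 in edgeR). That was -0.12 (adjusted p 0.435) without labelled-knockout replicate 3 and -0.42 (adjusted p 0.0296) without labelled-knockout replicate 1.

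With Cre virus 4 members (0 higher, 4 lower) were called, against 26.5% of all genes (13.1% higher, 13.4% lower). Cat was lower in D29H than in R554Q, at 0.499-fold (log2 value -1.0, SE 0.11, adjusted p 9.8e-07 in edgeR). Sod2 was lower too, at 0.789-fold (-0.34, SE 0.09, adjusted p 0.01), with 31.3 to 33.0 CPM against 38.1 to 44.5, and lost its call without R554Q replicate 3 (adjusted p 0.0605). The 4 called were Cat, Sod1, Sod2 and Sod3, and the 5 peroxidases had values from -0.12 to 0.28 with adjusted p from 0.069 to 0.535. Of these, Gpx7 at 0.28 was called higher with upper-quartile scaling (0.31, adjusted p 0.0496), which gave 5 members, and without D29H replicate 2 (0.38, adjusted p 0.0291), and had 0.13 (adjusted p 0.401) without D29H replicate 1. The groups did not overlap for 5 members, all of them lower in D29H, against 37.4% of all genes in either direction and 19.2% lower. With empty virus they did not overlap for 1 higher and 4 lower members, against 37.2% of all genes, 17.9% higher and 19.3% lower.

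**Figure D4:**
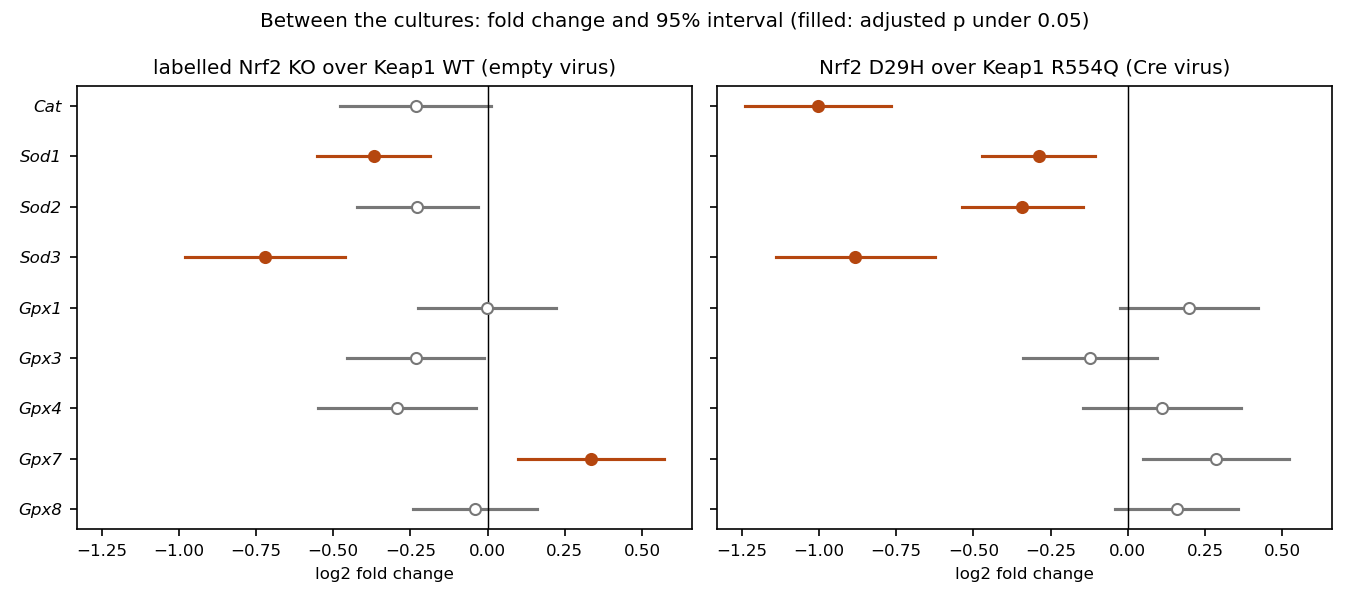
Log2 fold change with its 95% interval between the cultures, labelled Nrf2 knockout over Keap1 wild type (left, empty virus) and Nrf2 D29H over Keap1 R554Q (right, Cre virus), filled where the adjusted p was under 0.05. Sod1 and Sod3 are filled below 0 in both panels, and Cat at -1.0 is filled in the right panel alone.

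Genes around these enzymes were taken from fixed lists. The peroxiredoxins, which reduce hydrogen peroxide through a reactive cysteine, had 2 of 6 genes higher and 0 lower in each comparison, with medians of 0.04 and -0.12. Prdx1, a cytosolic peroxiredoxin, was higher at 0.54 (SE 0.12, adjusted p 0.0118) in the Nrf2 comparison and at 0.52 (SE 0.09, adjusted p 0.00282) in the Keap1 comparison. Prdx6, which also reduces lipid peroxides, was higher at 0.54 (SE 0.10) and 0.76 (SE 0.09). The other 4 peroxiredoxins had values between -0.21 and 0.11.

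The genes that supply glutathione to the peroxidases had 3 of 7 tested higher in the Nrf2 comparison and 4 of 7 in the Keap1 comparison, with 0 lower in both. The medians were 0.43 and 0.83. Gclc, the catalytic subunit of the first step of glutathione synthesis, was higher at 1.24 and 1.56, and Gclm, its modifier subunit, at 1.08 and 1.60. Gsr, the reductase that recycles oxidised glutathione, was higher at 0.43 (adjusted p 0.0202) in the Nrf2 comparison and at 0.83 in the Keap1 comparison. Slc7a11, the cystine transporter, was higher at 2.35 (SE 0.16) in the Keap1 comparison. Of 8 standard NRF2 targets, which share 4 genes with that list, 7 and 8 were higher. The 3 with the highest values in the Nrf2 comparison were Nqo1 at 3.74, the sulfiredoxin gene Srxn1 at 1.66 and the heme oxygenase gene Hmox1 at 1.39. Those in the Keap1 comparison were Nqo1 at 3.41, Srxn1 at 2.35 and Slc7a11.

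Of the genes that make selenocysteine and insert it, 1 of 6 was higher in the Nrf2 comparison: Pstk, the kinase that acts on the loaded transfer RNA, at 0.39 (SE 0.11, adjusted p 0.0432 in edgeR). In the Keap1 comparison 0 of 6 were called in edgeR, DESeq2 or limma and 0 had an unadjusted p under 0.05. Sephs2, which makes the selenium donor and has the highest level of the list, had a value of -0.11 there. Among 17 other selenoproteins the thioredoxin reductase Txnrd1 was higher in both, at 1.18 and 1.31. Of these 17, 3 were lower in the Keap1 comparison: Selenos (listed as Vimp) at -0.39, Selenof (listed as Sep15) at -0.38 and Selenok (listed as Selk) at -0.34, with adjusted p from 0.00981 to 0.0171. With Txnrd1 that makes 4 called in edgeR, against 6 in DESeq2 and 4 in limma. Selenok was not among the 3 largest values that the rule on named genes takes and is given because it completes that count.

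The genes of oxidative protein folding, which work beside Gpx7 and Gpx8, had medians of -0.36 and -0.24. Of 7 tested 0 were called in edgeR in both comparisons, while 5 and 4 had an unadjusted p under 0.05, all lower. DESeq2 called 2 in each, and limma 0 and 1. P4hb, the main protein disulfide isomerase, had values of -0.40 (SE 0.14, adjusted p 0.096) and -0.36 (SE 0.11, adjusted p 0.0588).

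Catalase enters peroxisomes by their import machinery. Of 24 peroxisome genes 0 were called in edgeR, DESeq2 or limma in the Nrf2 comparison, and 0 had an unadjusted p under 0.05. Pex5, the import receptor, had a value of 0.00 (SE 0.10). In the Keap1 comparison 2 were higher, Pex6, part of the complex that recycles the receptor, at 0.42 (SE 0.09, adjusted p 0.0123) and Acox3, an oxidase that makes hydrogen peroxide, at 0.38 (SE 0.11, adjusted p 0.0415). The medians of the list were 0.01 and 0.04. FOXO factors, described as activators of Cat and Sod2, had 0 of 4 genes called in the Nrf2 comparison in edgeR, DESeq2 or limma, with 0 at an unadjusted p under 0.05. Foxo3, the highest of these, had a value of 0.12 (SE 0.10) there and was higher at 0.33 (SE 0.08, adjusted p 0.022) in the Keap1 comparison.

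The genes that bring copper and manganese to the superoxide dismutases had 0 of 7 called in both comparisons in edgeR, DESeq2 or limma, with 1 and 1 at an unadjusted p under 0.05 and medians of -0.05 and -0.11. Atox1, a copper chaperone and the highest of the list, had values of 0.37 (SE 0.12, adjusted p 0.071) and -0.03 (SE 0.10). Among genes that produce oxidants, 1 of 6 tested was higher in the Nrf2 comparison and 2 of 6 in the Keap1 comparison. Aox1, an aldehyde oxidase, was higher at 2.27 (SE 0.22) and 1.88 (SE 0.14), and Xdh, the xanthine oxidoreductase, at 0.91 (SE 0.22, adjusted p 0.0223) in the Keap1 comparison.

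Of the genes of lipid peroxidation, the process that Gpx4 opposes, 2 of 7 tested were higher in the Nrf2 comparison and 3 of 6 in the Keap1 comparison. The ferritin chains that store iron were higher in both, Fth1 at 1.00 and 0.88 and Ftl1 at 0.72 and 0.67. Alox5, a lipoxygenase with a low mean of 1.83 CPM in the Keap1 comparison, was higher at 1.03 (SE 0.28, adjusted p 0.0382). DESeq2 called 2 of this list in the Keap1 comparison, against 3 in edgeR and limma. The 2 ferritin genes and Alox5 act on iron and on fatty acids, and none of them removes a lipid peroxide.

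**Figure D5:**
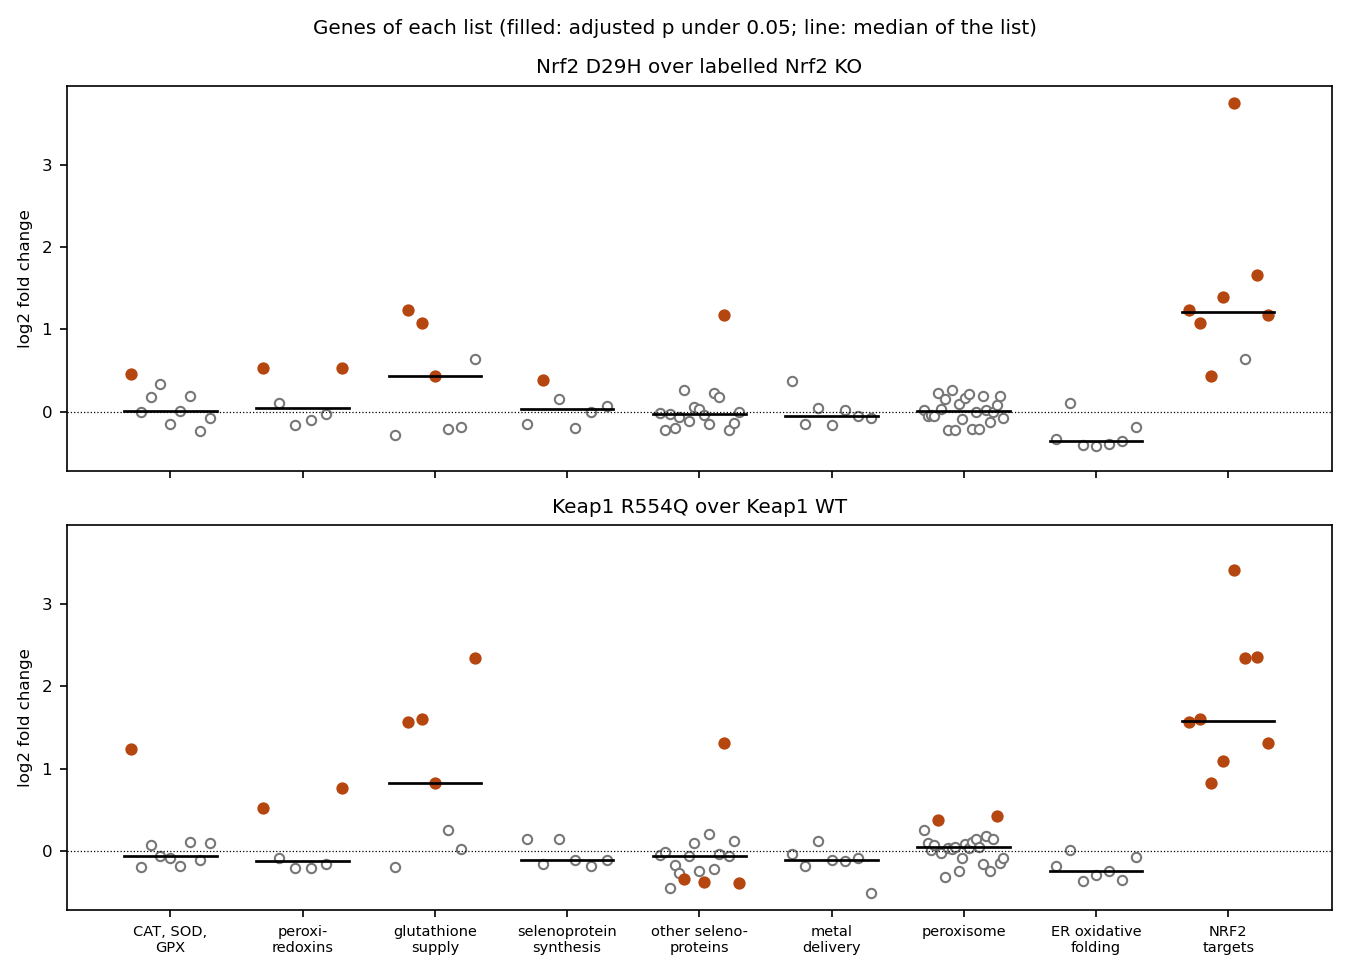
Log2 fold change of each tested gene in the members and 8 of the lists, in the Nrf2 comparison (top) and the Keap1 comparison (bottom), with 1 point per gene, filled where the adjusted p was under 0.05, and a line at each list's median. Cat is the filled point of the first column in both panels, and the filled points of the NRF2 targets number 7 and 8.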

How the data were processed

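The 12 libraries were made from RNeasy Plus RNA with a NEBNext Ultra kit, per the labels' protocols. The authors deposited a read count per gene and library in 2 tables, 1 per culture, and FPKM, per the file headers. FPKM recomputed from the counts, the listed gene length and the column total differed by at most 5e-10%. Beside these the authors deposited a normalised mean signal for each group, log2 fold changes and p-values. STAR, DESeq2 and mm10 are named in the submitters' processing notes. Versions, the counting tool, the annotation and the use of strand are not given in the sources used here.

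Counts were tested in R 4.3.3 with edgeR 4.0.16 (filterByExpr, TMM, glmQLFit, glmQLFTest) over all genes, with Benjamini-Hochberg adjustment and calls at an adjusted p under 0.05. The Nrf2 and Keap1 comparisons used their own 6 libraries. The difference and the contrasts between cultures used 1 fit of all 12 libraries over genes in both tables (20844 listed, 14794 tested). The SE is the log2 fold change over the square root of the test statistic, and intervals use its t quantile. Fold changes and adjusted p are from these fits unless the authors' deposited table is named. The test was tried on simulated counts first.

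The members, lists and tests were chosen with earlier results of these data known, so no list is independent evidence. Lists are described by counts and medians, without a set test. The genes named are the 9 members, the 3 called genes with the largest change in each list and comparison (or, with none called, the gene with the highest CPM), the 3 genes most like a called member, Nfe2l2 and Nqo1. Alternatives were scaling by RLE or upper quartile, a filter on a mean count of 50 or none, limma 3.58.1 with trend, DESeq2 1.42.0, 1 fit of 12 libraries, a replicate block, lowess offsets for GC content and length (span 0.3), an adjusted p under 0.01 and leaving out each library.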

Additional observations from a re-analysis of the deposited data

How the results depend on the processing

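No member changed direction and was called in the other direction under any alternative run. At an adjusted p under 0.01, 0 members were called in the Nrf2 comparison (138 of 14370 genes in all) and 2 between the Cre groups (2221 of 14794). Leaving out 1 library gave 0 to 1 members in the Nrf2 comparison (0 without D29H replicate 3 and without labelled-knockout replicate 2; without labelled-knockout replicate 1 the member called was Gpx4), 1 to 1 in the Keap1 comparison, 0 to 1 for the difference, 2 to 3 between the control groups (2047 to 2857 genes in all) and 3 to 4 between the Cre groups (2775 to 4353). With offsets for GC content and length, 2 members were called in the Keap1 comparison (508 genes in all, in place of 872) and 6 between the control groups (3529, in place of 2911). For the difference, no filter on low counts gave 1 (Cat, -0.78, adjusted p 0.0127) and DESeq2 gave 1 (Cat, -0.79). The causes of these shifts were not tested. Of 9 member levels and 26 list counts, 9 and 26 kept their value within the spread or within 1.5 times with TMM-scaled RPKM or RLE scaling.

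Leaving out 1 library moved the number of all genes called from 682 to between 82 and 2192 in the Nrf2 comparison and from 872 to between 238 and 2872 in the Keap1 comparison. For the difference it gave 0 to 26 in place of 4, while no filter gave 32 and DESeq2 53. No filter gave 1195 and 1502 in the Nrf2 and Keap1 comparisons.

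Replicate numbers are shared between groups, but no label says what they mean. Deviations of libraries with the same number correlated with r of -0.11, -0.16 and -0.15 in the Nrf2 culture and 0.10, -0.40 and -0.15 in the Keap1 culture, and 1 of 6 Cre libraries correlated best with its own number. With the replicate block the members called were 1 in the Nrf2 comparison (728 genes in all), 1 in the Keap1 comparison (484 genes), 0 for the difference (0 genes), 2 between the control groups (Gpx7 was lost) and 4 between the Cre groups. With the block and the GC and length offsets together, 1 member was called in the Keap1 comparison (Gpx1, -0.25, had an adjusted p of 0.0737) and 3 between the control groups (Sod3, Gpx4 and Gpx7), with adjusted p of 0.0678 for Sod1 (-0.24), 0.0784 for Sod2 and 0.0778 for Gpx3. A block by the numbers in the sample descriptions, which rests on 4 of the 6 Nrf2 libraries, called 3 members (Cat higher, Sod3 lower at -0.30 with an adjusted p of 0.0316, Gpx7 lower at -0.38 with 0.000526) and 3941 genes.

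Precision is limited by 3 libraries per group. The counts of the members ran from 160 (Gpx3) to 18905 (Gpx1) reads per library.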
